A study of Arabidopsis thaliana with 36 samples.

Results

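The AP2/ERF transcription factors of Arabidopsis thaliana are plant-specific DNA-binding proteins that share the AP2 domain. Here they are the 95 genes, of 28496 genes in the expression table, whose annotated description names an integrase-type DNA-binding superfamily protein, an ethylene response factor or an ethylene responsive element binding factor. Relatives described in other words, such as the CBF genes of the cold response, are outside this choice.

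RNA was sequenced from shoots and from roots of seedlings of the Col-0 accession, each library from a pool of about 20 seedlings. Line 12 and line 4 are independent transgenic lines that carry 35S:PHT5;1-GFP, in which the constitutive 35S promoter drives the vacuolar phosphate transporter PHT5;1 fused to green fluorescent protein, and the wild type (WT) is untransformed. All seedlings grew for 10 days on agar with 250 µM phosphate. They were then sampled (P0) or moved to 10 µM phosphate for 1 day (P1) or 3 days (P3). Each of the 18 combinations of tissue, genotype and day has 2 libraries, so that p-values measure the spread between 2 seedling pools. A change between days also holds age and the move to new medium, and no line with green fluorescent protein alone is among the 36 libraries.

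The members fall into groups by the sequence of the AP2 domain. Groups I to IV are the DREB side of the family, whose proteins bind the dehydration-responsive element, and groups V to X are the ERF side, whose proteins bind the GCC box of defence and ethylene-responsive genes. Group IX holds the activators ERF1, ERF1A, ERF2, ERF5, ERF6, ERF104 and ERF105, group VIII the repressors ERF4 and ERF8, group VI the cytokinin response factors (CRF) and group VII the low-oxygen regulators. Proteins of the AP2 class carry the domain as a tandem pair and act in flowers, seeds and meristems. Several genes of groups III and IX are known to respond within minutes to touch, wounding and cold.

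Group III had 22 members, group IX 13, the AP2 class 11, group VIII 10 and group I 9. Groups IV and X had 7 each, group VI 5, groups II and V 4 each, group VII 2, and 1 member is the family's soloist. The libraries held 19.0 M to 40.7 M reads (M, mega) as recovered from the values. The top of this range lies above the mapped reads per library that the authors state. Whether both mates of a read pair count as reads here is not known. A gene was tested in a tissue where its mean was at least 0.25 RPKM (reads per kilobase of exon, scaled to the mapped reads of the library) over the 18 libraries of that tissue. By this rule 68 members were tested in shoots and 66 in roots, 58 of them in both, 19 were tested in neither, and 3 were listed at 0 in all libraries. The overexpressed gene PHT5;1 was at 52.6 to 93.8 RPKM in line 12 shoots and 18.9 to 35.5 RPKM in line 4 shoots, against 14.7 to 19.9 RPKM in WT shoots. In roots it was at 306 to 399 RPKM in line 12 and 52.2 to 92.4 RPKM in line 4, against 28.2 to 41.7 RPKM in WT. Line 4 shoots thus overlapped the WT range. The summed level of 6 shoot markers was 18800 to 31930 RPKM in shoots against 166 to 372 RPKM in roots, and that of 6 root markers was 0.494 to 3.67 RPKM in shoots against 212 to 427 RPKM in roots. The marker sums of the 2 tissues did not overlap. In bulk tissue, fewer cells that express a gene and less RNA per cell cannot be told apart.

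Shoots and roots of WT seedlings at P0 differed in the level of 40 members of the family. That is 55.6% of those tested, near the 51.1% of all genes. A gene was called in this comparison when its adjusted p was under 0.05 in limma, a linear model fitted across all genes on log2(RPKM + 0.25), and its mean differed at least 2-fold. Of 72 members tested here, 16 were higher and 24 lower in shoots than in roots, beside 15.3% and 35.9% of all genes. The median difference was -0.65 on the log2 scale over all genes, and rescaling by median ratios moved it to -0.04 and the members' split to 23 higher and 20 lower, while the share of higher genes among all called moved to 50% in place of 29.8%. With any 1 library left out, 38 of the 40 calls held; AT1G22810 was lost without replicate 1 of WT shoots and TINY2 also without replicate 2 of WT roots.

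Root meristem regulators were among the members furthest to the lower side. PLT1 and PLT2, which maintain the root stem cell niche, were listed at 0 in both WT shoot libraries at P0, against 6.57 and 5.38 RPKM for PLT1 and 2.72 and 2.53 RPKM for PLT2 in WT roots. BBM, a relative that promotes embryo and meristem identity, was at 0.167 and 0.0427 RPKM in shoots against 4.71 and 4.39 RPKM in roots. PUCHI, a regulator of lateral root formation, had 0 reads in shoots and 77 and 53 reads in roots. Set against a floor of 3 reads per library, its root level was at least 19.3-fold higher. AT4G13620 of group I, which has no gene name in the annotation, likewise had 0 reads in shoots and was at least 99.5-fold higher in roots. TINY, a DREB-side gene known from dwarf plants that overexpress it, was at 1.64 and 2.17 RPKM in shoots against 35.1 and 45.5 RPKM in roots, a difference of -4.23 on the log2 scale (SE 0.23, limma adjusted p = 2.4e-14). LEP, named for the leafy petiole mutant, was at 1.05 and 0.412 RPKM in shoots against 15.8 and 17.4 RPKM in roots.

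On the other side, the floral repressor SNZ was at 9.98 and 9.18 RPKM in shoots against 0.896 and 0.664 RPKM in roots (log2 difference 3.26, SE 0.23, limma adjusted p = 5.9e-12). WRI4, an activator of fatty acid synthesis for cuticular wax, was at 70.4 and 110 RPKM in shoots against 11.8 and 12.0 RPKM in roots. SHN2, a cuticle regulator, was at 2.71 and 2.1 RPKM in shoots and listed at 0 in roots. DEWAX, a repressor of wax genes, had the highest mean RPKM of the members in WT shoots and in WT roots at P0, 357 and 370 RPKM in shoots against 154 and 136 RPKM in roots. Members of the same group therefore lay on both sides, as with SNZ and PLT1 of the AP2 class.

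**Figure D1:**
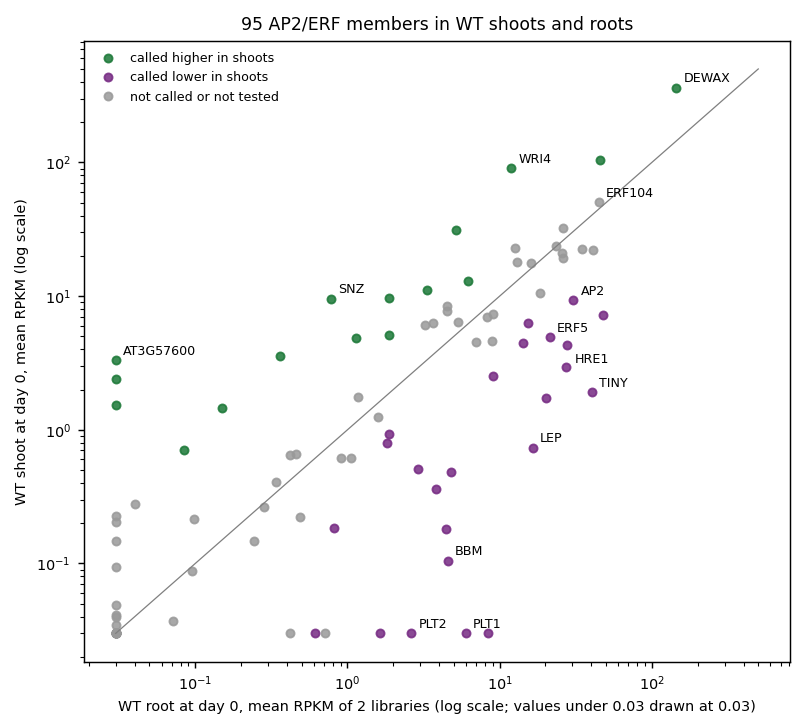
Mean RPKM of the 95 members in WT shoots at P0 (vertical) against WT roots at P0 (horizontal), each point a member with 2 libraries per tissue, both axes logarithmic and values under 0.03 drawn at 0.03. The 16 members called higher in shoots lie above the diagonal and the 24 called lower lie below it, with PLT1 and PLT2 on the floor of the shoot axis.

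In WT shoots, a set of activators and repressors was higher after the move to low phosphate. Calls in shoots took the same limits, an adjusted p under 0.05 and 2-fold in mean RPKM. At P1 against P0, 15 of the 68 members were higher and 5 lower, beside 3.94% and 2.13% of all genes. At P3 against P0, 13 were higher and 5 lower, beside 4.32% and 2.48% of all genes, or 16 and 3 after rescaling. Of all genes called at P3, 63.5% were higher, or 79.9% after rescaling. The members' median change was 0.36 at P1 and 0.14 at P3 on the log2 scale, against -0.11 and -0.14 over all genes. Of 10 tested members of group IX, 6 were higher at P1 and 6 at P3, with none lower. In group III, 5 of 18 were higher and 1 lower at P1, and in group VIII 2 of 6 were higher, namely ERF4 and ERF8.

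A set of 10 members was higher in WT at P1, in WT at P3 and also in line 12 at P0, 3 comparisons that share the WT P0 libraries. They are ORA47, AT1G33760, ERF105, ERF5, ERF6, ERF104, ERF2, ERF1A, ERF4 and ERF8. Of all genes, 3.94%, 4.32% and 7.06% were called higher in the single comparisons, and the share called in all 3 was not computed. The set is picked on high WT values at P1 and P3, and the lines are set against those same WT libraries below. The stretches just before the start sites of ORA47, AT1G33760 and ERF5, which are among the 4 with the largest change in WT at P1, are shown because these genes moved together. They are the 250 bases before each start in the RefSeq annotation of TAIR10.1, on the strand of the gene. Capitals mark matches, on either strand, to the W-box core TTGAC bound by WRKY factors, to the phosphate starvation element P1BS (GNATATNC) and to the dehydration-responsive core CCGAC.
ORA47 (chr1:28143601-28143850, plus strand): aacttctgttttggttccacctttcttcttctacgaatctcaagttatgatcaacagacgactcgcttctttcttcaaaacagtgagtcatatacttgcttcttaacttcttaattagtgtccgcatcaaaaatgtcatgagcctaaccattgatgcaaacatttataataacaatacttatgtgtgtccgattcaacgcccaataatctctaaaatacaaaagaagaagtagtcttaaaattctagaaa
AT1G33760 (chr1:12237297-12237546, plus strand): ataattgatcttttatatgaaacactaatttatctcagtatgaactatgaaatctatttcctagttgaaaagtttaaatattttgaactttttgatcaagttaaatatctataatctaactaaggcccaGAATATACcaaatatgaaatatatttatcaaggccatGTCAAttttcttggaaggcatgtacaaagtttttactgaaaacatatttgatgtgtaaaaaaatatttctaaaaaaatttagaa
ERF5 (chr5:19179631-19179880, plus strand): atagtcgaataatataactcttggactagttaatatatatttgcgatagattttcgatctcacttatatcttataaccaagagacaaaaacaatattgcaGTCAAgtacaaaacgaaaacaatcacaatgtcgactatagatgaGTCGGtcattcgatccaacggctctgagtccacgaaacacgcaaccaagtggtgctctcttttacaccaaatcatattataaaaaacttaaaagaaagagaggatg
The W-box core lay 84 bases before the start in AT1G33760 and 150 in ERF5, while the ORA47 window held none of the 7 motifs searched. It was in 5 of the 9 windows of this set that were searched and in 45.0% of 26709 windows of all genes. P1BS was in 2 of 9, AT1G33760 and ERF104, and in 5.44% of all windows. The G-box CACGTG was in 3 of 9 against 6.58%, and CCGAC in 1 of 9 against 11.9%. The GCC box (GCCGCC), the stress element CGCGTT and the evening element AAAATATCT were in none of the 9 windows and in 1.85%, 2.59% and 2.4% of all windows. These are matches of letters and not sites.

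ORA47, an activator of jasmonate synthesis genes, was at 3.46 and 6.24 RPKM at P0, 57.6 and 129 RPKM at P1 and 27.0 and 21.2 RPKM at P3 in WT shoots. All 4 starved libraries were above both P0 libraries, and the day 1 pair was the highest and the widest apart. The log2 change was 4.14 at P1 (SE 0.40, limma adjusted p = 1.7e-05) and 2.3 at P3 (SE 0.40, adjusted p = 0.001). ERF105, an activator of group IX that is known to respond to cold, was at 7.33 and 9.62 RPKM at P0, 96.4 and 142 RPKM at P1 and 54.4 and 58.5 RPKM at P3. Its log2 change was 3.76 at P1 (SE 0.27) and 2.71 at P3 (SE 0.27). ERF5 and ERF6, a pair of closely related regulators of defence and of leaf growth under stress, followed. ERF5 was at 3.47 and 6.35 RPKM at P0, 49.5 and 74.6 RPKM at P1 and 19.2 and 16.1 RPKM at P3. ERF6 was at 21.5 and 24.1 RPKM at P0, 130 and 192 RPKM at P1 and 106 and 131 RPKM at P3.

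AT1G33760, a member of group III, was at 16.4 and 29.0 RPKM in WT shoots at P1, against 1.51 and 1.56 RPKM at P0. The remaining members of this set rose less. ERF104, a target of a stress-activated protein kinase, was at 44.3 and 56.2 RPKM at P0, 234 and 257 RPKM at P1 and 169 and 156 RPKM at P3 (log2 change at P1 2.29, SE 0.18, limma adjusted p = 4.9e-06). ERF4, a repressor with an EAR motif, was at 23.6 and 21.5 RPKM at P0, 99.9 and 153 RPKM at P1 and 61.9 and 60.3 RPKM at P3. Activators and repressors of the GCC box were thus higher in the same libraries. ERF1A was at 19.2 and 19.1 RPKM at P0, 42.4 and 78.5 RPKM at P1 and 66.2 and 67.6 RPKM at P3. ERF2 was at 11.2 and 11.1 RPKM at P0, 22.8 and 54.5 RPKM at P1 and 29.5 and 32.1 RPKM at P3. ERF8 was at 6.34 and 6.54 RPKM at P0, 13.5 and 18.4 RPKM at P1 and 23.6 and 21.6 RPKM at P3.

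Some group III genes were low at P0 and peaked at P1. AT5G21960 was at 0 and 0.0791 RPKM at P0, 2.80 and 8.15 RPKM at P1 and 0.504 and 0.334 RPKM at P3 (log2 change at P1 4.14, SE 0.51, limma adjusted p = 9.2e-05). DDF1, a regulator that lowers active gibberellin under salt stress, was at 0.156 and 0.139 RPKM at P0, 3.82 and 11.3 RPKM at P1 and 1.14 and 1.59 RPKM at P3. Its call at P3 (log2 change 2.01, SE 0.68, limma adjusted p = 0.038) was lost with a pseudocount of 1 (adjusted p = 0.171). In WT at P1, replicate 2 was above replicate 1 for each of the 10 members of the set, and also for AT5G21960 and DDF1. Without that replicate, 11 members were called higher in place of 15, and ERF1A and ERF2 were lost. Of the 20 calls at P1, 13 held with any 1 library left out, and of the 18 at P3, 11 held. The count of 5 lower members at P1 was 3 without replicate 1 of WT P0 or of WT P1. At P3 the 5 lower were 1 without replicate 1 of WT P0, 3 without its replicate 2 and 2 without replicate 1 of WT P3.

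ERF1, the direct target of the ethylene regulator EIN3, had 0 reads in both WT P0 shoot libraries and 6 and 28 reads at P3. That is at least 4.59-fold higher against a floor of 3 reads per library, which equals 0.131 and 0.117 RPKM, but it was not called. SHN1, a wax regulator, stayed at or under 0.140 RPKM in every shoot library. Of 12 ethylene perception and signalling genes, none was higher and 1 lower in WT shoots at P1, and none was called there at P3. Of 11 ethylene synthesis genes, 2 were higher on each day.

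Genes known to respond to touch and wounding moved in the same libraries. Of 10 such genes, 7 were higher and none lower in WT shoots at P1 (median log2 change 2.1), 7 at P3 (1.52) and 7 in line 12 shoots at P0 (1.66). Of all genes, 3.94%, 4.32% and 7.06% were higher in these comparisons. In line 4 shoots at P0 1 of the 10 was higher, beside 2.59% of all genes. WRKY40, one of these 10 genes, was at 6.93 and 11.1 RPKM at P0, 111 and 168 RPKM at P1 and 27.0 and 48.1 RPKM at P3 in WT shoots. Of 8 tested circadian clock genes, PRR9 alone was higher, at 0.389 and 0.369 RPKM at P0, 2.03 and 2.59 RPKM at P1 and 1.53 and 1.91 RPKM at P3. The hour of harvest is not given in the sources used here. The part of handling and of harvest hour in these results was not tested. Relatives outside the choice moved likewise: of 45 tested, 11 were higher and 4 lower at P1, and 10 and 2 at P3. Among them CBF1, a cold response activator, ERF11, a repressor of group VIII, and ERF13 of group IX were low at P0. CBF1 was at 1.28 and 1.15 RPKM at P0, 21.8 and 26.9 RPKM at P1 and 4.86 and 6.42 RPKM at P3. ERF11 was at 3.18 and 2.77 RPKM at P0, 23.4 and 59.0 RPKM at P1 and 18.6 and 19.9 RPKM at P3. ERF13 was at 0.673 and 1.12 RPKM at P0, 12.5 and 31.8 RPKM at P1 and 4.46 and 3.77 RPKM at P3. These relatives peaked at P1 as ORA47 did. Of the 8 cold and dehydration genes that DREB proteins are known to activate, none was called at P1 in WT shoots and 1 was higher and 1 lower at P3. Against WT, 4 of them were lower in line 12 shoots and 3 in line 4 shoots at P0, 1 was higher and 1 lower in line 12 at P1, and 4 were lower in line 12 and 1 in line 4 at P3.

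The 5 members that were lower at P1 were WRI4, AT1G36060, CRF10, ABR1 and TINY. WRI4 was at 70.4 and 110 RPKM at P0, 21.6 and 16.8 RPKM at P1 and 24.2 and 26.5 RPKM at P3. Its log2 change was -2.19 at P1 (SE 0.31, limma adjusted p = 0.00026) and -1.79 at P3 (SE 0.31, adjusted p = 0.00097), and the groups did not overlap. ABR1, a repressor of abscisic acid responses, was at 0.820 and 0.781 RPKM at P0, 0.275 and 0.255 RPKM at P1 and 0.237 and 0.320 RPKM at P3, and its calls were lost without single libraries. AT1G36060 and TINY were lower at P3 as well, but not after rescaling (adjusted p = 0.0548 and 0.0636).

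In line 12 shoots at P0, before any starvation, 13 of 68 members were higher and 4 lower than in WT, beside 7.06% and 1.98% of all genes. In line 4 shoots at P0 none was called higher and 3 were lower, beside 2.59% and 0.622% of all genes. At an unadjusted p under 0.05, limma placed 13 members higher and 7 lower in line 4. The median difference of the members was 0.02 in both lines on the log2 scale, against 0.05 and -0.00336 over all genes. In group IX, 7 of 10 were higher in line 12 (median 1.81), and the median was 0.82 in line 4 with no call.

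ERF5 was at 39.9 and 20.2 RPKM in line 12 shoots and 12.6 and 6.41 RPKM in line 4 shoots at P0, against 3.47 and 6.35 RPKM in WT. The line 12 values were above both WT values and the lower line 4 value was next to the higher WT value. The log2 difference was 2.53 in line 12 (SE 0.37, limma adjusted p = 0.00027). ERF105 was at 42.9 and 30.4 RPKM in line 12 and 17.0 and 15.9 RPKM in line 4, against 7.33 and 9.62 RPKM in WT. ERF6 was at 82.4 and 79.2 RPKM in line 12 and 42.3 and 34.3 RPKM in line 4, against 21.5 and 24.1 RPKM in WT. For ERF105 and ERF6 line 4 lay between line 12 and WT without overlap. ERF2 was at 37.4 and 49.7 RPKM in line 12 and 38.9 and 16.8 RPKM in line 4, against 11.2 and 11.1 RPKM in WT. ERF1A was at 57.8 and 79.6 RPKM in line 12 and 57.3 and 27.8 RPKM in line 4, against 19.2 and 19.1 RPKM in WT. The 2 line 4 libraries were far apart in both genes, replicate 1 being the higher. ERF1 had 20 and 24 reads in line 12, at least 6.64-fold above the floor of 3 reads for its 0 reads in WT (limma adjusted p = 0.02, or 0.051 with a pseudocount of 1). The difference between line 12 and line 4 was not tested.

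The same line 12 P0 libraries held more WRKY40, 65.4 and 60.2 RPKM, beside 29.0 and 16.1 RPKM in line 4 and 6.93 and 11.1 RPKM in WT. They also held more PRR9, 2.73 and 1.74 RPKM, beside 1.02 and 1.503 RPKM in line 4 and 0.389 and 0.369 RPKM in WT. Their part in the result was not tested. Of 5 tested defence genes that ERF activators are known to induce, 5 were higher in line 12 and 4 in line 4 at P0. Against WT at P1, 5 were higher in line 12 and 3 in line 4, although no group IX member was called higher in either line. At P3, 3 were higher in line 12 and 1 in line 4. In WT shoots 1 was higher at P1 and 4 at P3 than at P0, and none was lower in any of these comparisons. PDF1.2, the plant defensin used as a readout of ERF1, was at 519 and 385 RPKM in line 12 and 582 and 490 RPKM in line 4 at P0, against 54.0 and 40.7 RPKM in WT. Of the 17 calls in line 12, 10 held with any 1 library left out; ORA47 was lost without replicate 1 of line 12 and also without replicate 1 of WT. None of the 3 calls in line 4 held throughout: 1 was left without replicate 1 of line 4 or of WT, and none without replicate 2 of WT. Without replicate 2 of line 4, 3 members were called higher there, and 1 without replicate 1 of WT. The 4 lower members of line 12 were 2 without replicate 1 of WT.

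**Figure D2:**
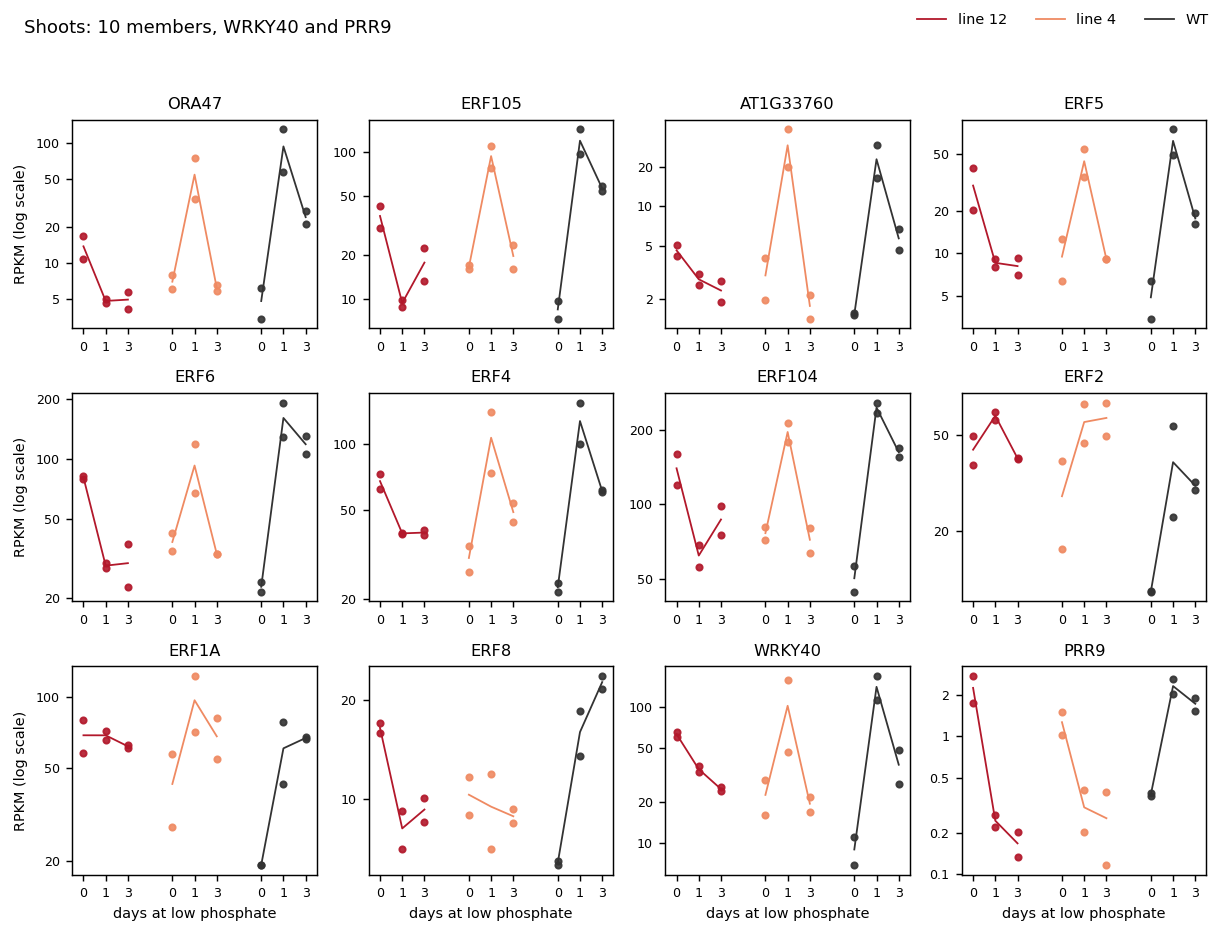
RPKM (log scale) in shoots of 10 members, of WRKY40 and of PRR9 by days at low phosphate, in line 12, line 4 and WT, with points for the 2 libraries and lines through their means. ERF105 is highest at day 1 in line 4, at 77.4 and 110 RPKM, and in WT, at 96.4 and 142 RPKM, while in line 12 it is highest at day 0, at 42.9 and 30.4 RPKM.

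Comparisons of the lines with WT at P1 were added after the data had been seen. In line 12 shoots, 6 members were higher and 16 lower than in WT, beside 7.37% and 3.98% of all genes, while in line 4 shoots 7 were higher and 3 lower, beside 3.08% and 2.76%. Of all genes called, 65% were higher in line 12 and 52.8% in line 4, or 49.5% and 41.5% after rescaling. The members' median difference was -0.27 in line 12 and 0.09 in line 4 on the log2 scale, against 0.19 and 0.11 over all genes. ORA47 was at 4.71 and 5.003 RPKM in line 12 and 33.9 and 74.7 RPKM in line 4, against 57.6 and 129 RPKM in WT, a log2 difference of -4.08 in line 12 (SE 0.40, limma adjusted p = 1e-05). Both line 12 values were below both WT values. ERF105 was at 9.88 and 8.86 RPKM in line 12 and 77.4 and 110 RPKM in line 4, against 96.4 and 142 RPKM in WT. ERF5 was at 8.08 and 9.10 RPKM in line 12 and 34.5 and 54.7 RPKM in line 4, against 49.5 and 74.6 RPKM in WT. DDF1 was at 0.200 and 0.114 RPKM in line 12 and 1.87 and 13.0 RPKM in line 4, against 3.82 and 11.3 RPKM in WT. For these 4 genes the line 4 values overlapped those of WT and none was called in line 4. Replicate 2 was above replicate 1 for all 4 in line 4 as in WT. Taken by replicate number, line 4 was below WT in both replicates for ORA47, ERF105 and ERF5, and in replicate 1 alone for DDF1. Over all genes the replicate differences of these 2 groups had a correlation of -0.0359. Line 12 was not set against line 4. Of the 10 members of the set, ERF8, ERF1A and ERF2 were not called in line 12 and none was called in line 4. ERF8 was at 7.10 and 9.26 RPKM in line 12 and 7.10 and 11.9 RPKM in line 4, against 13.5 and 18.4 RPKM in WT. ERF2 was at 58.2 and 62.5 RPKM in line 12 and 46.4 and 67.3 RPKM in line 4, against 22.8 and 54.5 RPKM in WT. ERF1A was at 65.4 and 72.0 RPKM in line 12 and 70.7 and 123 RPKM in line 4, against 42.4 and 78.5 RPKM in WT. Of the 22 calls in line 12, 20 held with any 1 library left out. In line 4, 6 of 10 held, with 11 higher without replicate 2 of WT P1, and 6 lower without replicate 2 of line 4 or replicate 1 of WT P1.

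WRKY40 was at 36.7 and 33.0 RPKM in line 12 and 46.3 and 156 RPKM in line 4 at P1, against 111 and 168 RPKM in WT. PRR9 was at 0.221 and 0.268 RPKM in line 12 and 0.407 and 0.204 RPKM in line 4, against 2.03 and 2.59 RPKM in WT. Of 8 tested clock genes, 3 were lower in each line at P1 and none was higher. The summed shoot markers were 18800 to 19500 RPKM in line 12 and 22880 to 23430 RPKM in line 4 at P1, against 28500 to 31120 RPKM in WT, and their part in the results was not tested.

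At P3, ORA47, ERF105, ERF6, ERF8 and AT1G33760 of this set were called lower than WT in both lines, ERF5 in line 12, ERF104 in line 4, and ERF4, ERF1A and ERF2 in neither. In line 12 shoots 3 members were higher and 13 lower, beside 3.62% and 4.07% of all genes, and in line 4 shoots 5 were higher and 12 lower, beside 3.81% and 4.4%. Of all genes called, 47.1% were higher in line 12 and 46.4% in line 4, or 28.4% and 29.4% after rescaling. Both comparisons share the WT P3 libraries. AT4G28140, RAP2.4, ESE3 and SNZ were also lower in both, which makes 9 of 68 members, beside 3.14% of all genes. ERF6 was at 37.2 and 22.7 RPKM in line 12 and 33.3 and 33.3 RPKM in line 4, against 106 and 131 RPKM in WT. Neither line overlapped WT, and the log2 difference was -2.01 in line 12 (SE 0.26) and -1.82 in line 4 (SE 0.26), with limma adjusted p of 0.0001 and 0.00018. ORA47 was at 4.17 and 5.80 RPKM in line 12 and 5.88 and 6.55 RPKM in line 4, against 27.0 and 21.2 RPKM in WT. RAP2.4, a regulator of light and ethylene responses in group I, was at 34.3 and 25.7 RPKM in line 12 and 27.0 and 25.7 RPKM in line 4, against 63.8 and 68.9 RPKM in WT. ERF2 was at 40.4 and 39.9 RPKM in line 12 and 49.8 and 68.5 RPKM in line 4, against 29.5 and 32.1 RPKM in WT. PRR9 was at 0.203 and 0.132 RPKM in line 12 and 0.393 and 0.117 RPKM in line 4, against 1.53 and 1.91 RPKM in WT, and the summed shoot markers were 19100 to 20210 RPKM in line 12 and 19230 to 20850 RPKM in line 4, against 27900 to 31930 RPKM in WT. The part of either was not tested. With any 1 library left out, 9 of 16 calls held in line 12 and 11 of 17 in line 4. The 13 lower members of line 12 were 8 without its replicate 2, the 3 higher were 5 without replicate 2 of WT, and the 5 higher of line 4 were 3 without its replicate 2.

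The change between P0 and P3 was compared between each line and WT as a difference of log2 changes, called on the adjusted p alone. In shoots it differed for 31 members in line 12, 12 upward and 19 downward, beside 19.9% and 13.3% of all genes (33.2% either way), and for 26 in line 4, 12 upward and 14 downward, beside 18.3% and 11.5% (29.8% either way). Of all genes called, 59.8% were upward in line 12 and 61.4% in line 4, or 45.2% and 41.6% after rescaling. The median difference of the members was -0.31 in line 12 and -0.06 in line 4, against 0.14 and 0.16 over all genes. The upward shares were near those of all genes. The 2 comparisons share the WT libraries. Called downward in both were 12 members, beside 9.87% of all genes, namely ORA47, ERF105, ERF5, ERF6, ERF104, ERF8, AT1G33760, AT1G01250, RAP2.4, ESE3, SMZ and SNZ, and upward in both 9 members, beside 14.7% of all genes, namely WRI4, ABR1, HRE1, AT1G71520, AT4G32800, CRF10, CRF11, AT2G41710 and AP2. For ERF6 the difference of responses was -3.83 in line 12 (SE 0.37, limma adjusted p = 5.7e-06) and -2.55 in line 4 (SE 0.37, adjusted p = 0.00021). For line 12 the value includes its higher P0 level. Of the 12 ethylene perception and signalling genes, 8 differed upward in line 12 and 8 in line 4, with none downward (medians 0.65 and 0.69). The upward shares of all genes were 19.9% and 18.3%. Of 8 tested clock genes, 3 differed upward and 4 downward in line 12, and 2 upward and 4 downward in line 4. Of the 10 touch and wounding genes, 6 differed downward in each line and none upward. The part of these genes was not tested. Within each line, P3 was also set against P0, a comparison added after the data had been seen. In line 12 shoots 7 members were higher and 8 lower at P3, beside 2.47% and 5.8% of all genes, and ERF6 fell by 1.47 on the log2 scale. In line 4 shoots 8 were higher and 3 lower, beside 2.53% and 4.43%, and ERF6 was not called. With any 1 library left out, 22 of the 31 calls held in line 12 and 16 of the 26 in line 4.

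**Figure D3:**
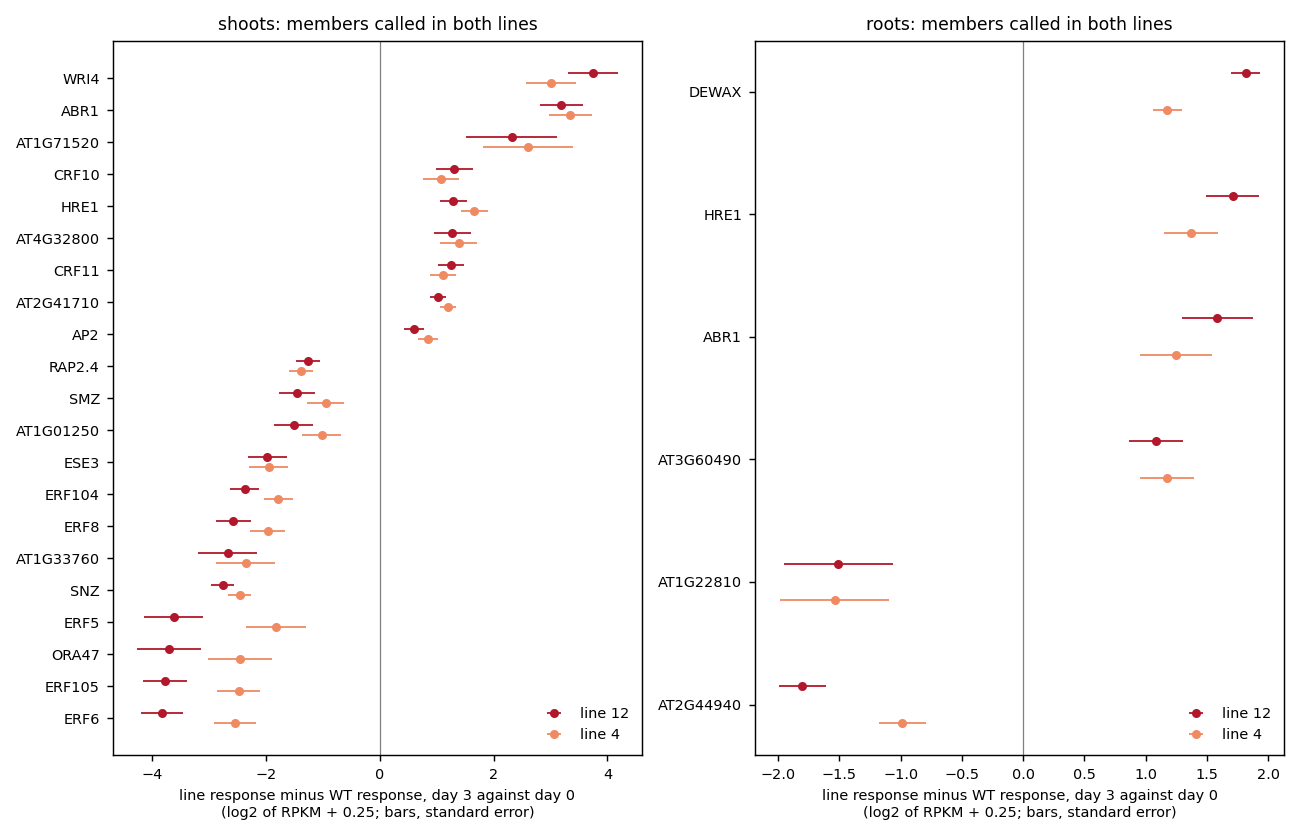
Difference between the line's and the WT's P3 response for the members called in both line 12 and line 4, in shoots (left) and roots (right), on the scale of log2(RPKM + 0.25), with bars for the standard error. ERF6 stands at -3.83 for line 12 and -2.55 for line 4 in shoots, and DEWAX at 1.82 for line 12 and 1.18 for line 4 in roots.

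WRI4 and ABR1 ran the other way in shoots. WRI4 was at 12.3 and 30.4 RPKM in line 12 and 29.0 and 39.4 RPKM in line 4 at P0, against 70.4 and 110 RPKM in WT, log2 differences of -2.17 (SE 0.31) and -1.37 (SE 0.31) with limma adjusted p of 0.00022 and 0.015. After 3 days it stood at 73.8 and 79.1 RPKM in line 12 and 78.3 and 79.8 RPKM in line 4, against 24.2 and 26.5 RPKM in WT. Both lines were below WT without overlap at P0 and above it at P3. The difference of responses was 3.75 in line 12 (SE 0.44, limma adjusted p = 2.8e-05) and 3.00 in line 4 (SE 0.44, adjusted p = 0.00023). ABR1 was at 0.130 and 0.209 RPKM in line 12 and 0.163 and 0.214 RPKM in line 4 at P0, against 0.820 and 0.781 RPKM in WT. On day 3 it had 1.62 and 1.71 RPKM in line 12 and 1.97 and 1.996 RPKM in line 4, against 0.237 and 0.320 RPKM in WT. This crossing held for both genes at P1: WRI4 was then at 59.8 and 55.5 RPKM in line 12 and 56.2 and 62.6 RPKM in line 4, against 21.6 and 16.8 RPKM in WT.

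The responses of CRF10 and CRF11, which belong to the cytokinin response factors, also differed upward, by 1.31 in line 12 (SE 0.32) and 1.07 in line 4 (SE 0.32) for CRF10 and by 1.25 in line 12 and 1.11 in line 4 (SE 0.23 each) for CRF11. CRF10 was at 3.01 and 3.86 RPKM in line 12 and 4.51 and 4.26 RPKM in line 4 at P0, against 8.73 and 5.22 RPKM in WT. At P1 it was at 9.42 and 7.16 RPKM in line 12 and 6.63 and 6.09 RPKM in line 4, against 3.07 and 2.95 RPKM in WT. It was called lower at P0 in line 12, higher at P1 in both lines and at P3 in neither. CRF11 was at 9.67 and 11.3 RPKM in line 12 and 12.4 and 9.35 RPKM in line 4 at P0, against 13.1 and 12.8 RPKM in WT. At P3 it was at 14.9 and 15.6 RPKM in line 12 and 13.9 and 14.6 RPKM in line 4, against 7.42 and 8.17 RPKM in WT. Against WT it was called in line 12 at P1 alone, while its ratios in line 4 at P1 and in both lines at P3 passed the adjusted p but stayed under the 2-fold limit. AT1G71520 of group III was called higher in both lines at P3, at 0.849 and 0.693 RPKM in line 12 and 0.881 and 2.42 RPKM in line 4, against 0 and 0.109 RPKM in WT, and was lost in both without single libraries. ESE3, an ethylene- and salt-inducible factor, was at 4.69 and 4.94 RPKM in line 12 and 6.91 and 4.53 RPKM in line 4 at P3, against 11.4 and 11.9 RPKM in WT.

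SNZ and SMZ, floral repressors of the AP2 class, fell in the starved lines. SNZ was at 17.4 and 19.2 RPKM in line 12 and 15.9 and 16.2 RPKM in line 4 at P0, against 9.98 and 9.18 RPKM in WT, differences that passed the adjusted p but not the 2-fold limit. At P3 the order was turned, with 3.95 and 4.73 RPKM in line 12 and 4.51 and 4.87 RPKM in line 4, against 17.3 and 15.1 RPKM in WT. The log2 difference at P3 was -1.84 in line 12 (SE 0.14, limma adjusted p = 2.3e-06) and -1.74 in line 4 (SE 0.14, adjusted p = 2.6e-06). Within the lines, SNZ fell by 2.02 on the log2 scale between P0 and P3 in line 12 and by 1.72 in line 4. SMZ was at 9.26 and 9.09 RPKM in line 12 and 6.2 and 6.91 RPKM in line 4 at P0, against 4.99 and 4.16 RPKM in WT. At P3 it was at 3.28 and 2.41 RPKM in line 12 and 2.49 and 3.34 RPKM in line 4, against 4.13 and 3.96 RPKM in WT, and was not called against WT on that day. Within the lines it fell by 1.62 on the log2 scale in line 12 and by 1.12 in line 4. ANT, a promoter of organ growth, was at 6.73 and 6.72 RPKM in line 12 and 5.62 and 6.59 RPKM in line 4 at P3, against 6.09 and 6.53 RPKM in WT. AP2 itself, which shapes flowers and seeds, differed less, at 9.81 and 10.5 RPKM in line 12 and 10.6 and 12.6 RPKM in line 4 at P3, against 8.15 and 6.46 RPKM in WT.

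SNZ, SMZ and AP2 carry a site for miR172 in their coding sequence, shown because it sets them apart from the other members. The mature miR172e of RefSeq (chr5:23988566-23988586, plus strand, TAIR10.1) has its seed, bases 2 to 8, in capitals. In the sites, capitals mark the bases that differ from the exact complement of the closest miR172 form. That form is miR172c for AP2 and miR172e for SMZ and SNZ.
miR172e: gGAATCTTgatgatgctgcat
AP2 site (chr4:17403019-17403039, plus strand): ctgcagcatcatcaGgattct
SMZ site (chr3:20373774-20373794, minus strand): TtgcagcatcatcaGgattcc
SNZ site (chr2:16389066-16389086, minus strand): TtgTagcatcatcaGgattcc
The sites had 1, 2 and 3 such differences, and pairs of G with U count as differences here. The best match in ABR1 had 4, and in the other 91 members it had 6 or more. Small RNAs were not measured, and AP2 was not called with SMZ and SNZ in the same direction.

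**Figure D4:**
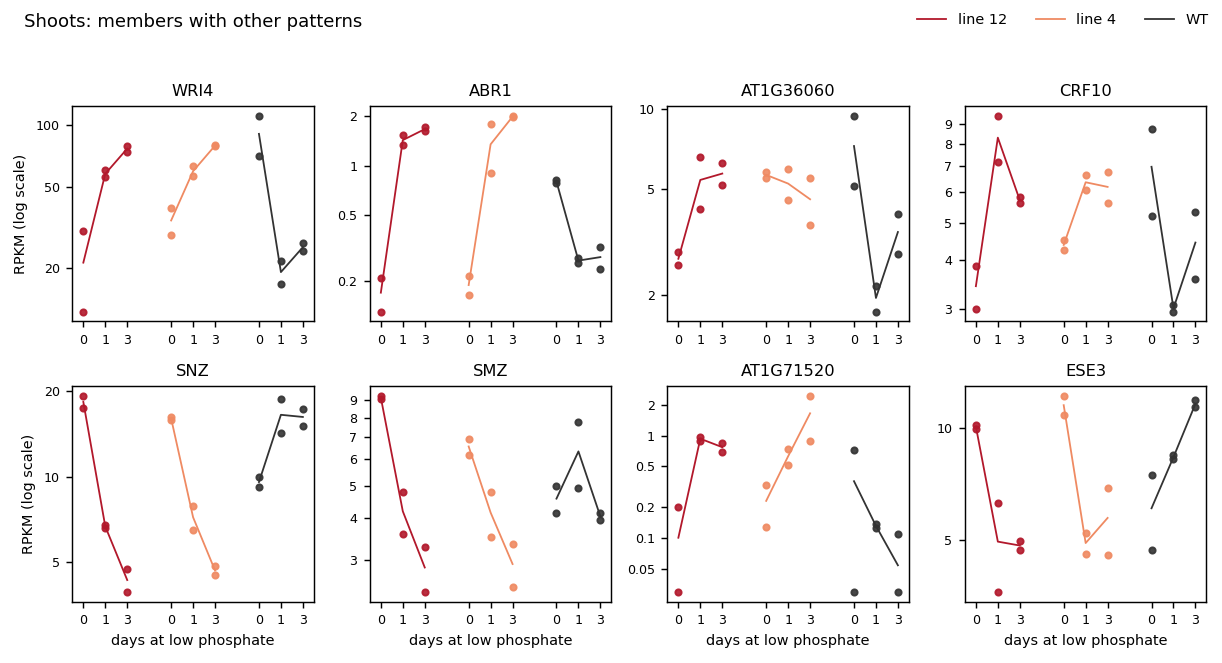
RPKM (log scale) in shoots of 8 members by days at low phosphate, in line 12, line 4 and WT, with points for the 2 libraries, lines through their means and values under 0.03 drawn at 0.03. WRI4 ends at 73.8 to 79.8 RPKM in the lines against 24.2 and 26.5 RPKM in WT, and SNZ ends at 3.95 to 4.87 RPKM in the lines against 17.3 and 15.1 RPKM in WT.

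Group VII proteins carry oxygen responses: where they begin with methionine and cysteine, the cysteine is oxidised in air and the protein is degraded. HRE1 and HRE2 are its 2 members here. Their coding starts are shown because this feature is read from them, with the codon after the first in capitals (TAIR10.1, RefSeq).
HRE1, longer forms (chr1:27241904-27241933, plus strand): atgTGCggaggagctgtaatttccgattac
HRE1, short form (chr1:27242142-27242171, plus strand): atgTCTcaaagctttgaactttatccatgg
HRE2 (chr2:19503461-19503490, minus strand): atgTGTgggggagctatcatttctgatttc
The longer HRE1 forms of 262 and 260 residues and HRE2 of 171 residues have cysteine in this place, and the short HRE1 form of 211 residues has serine. The gene-level values do not separate the HRE1 forms.

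In roots HRE1 was higher in both starved lines than in starved WT. Calls in roots took an adjusted p under 0.05 and 1.5-fold in mean RPKM. At P0 HRE1 was at 36.5 and 30.05 RPKM in line 12 roots and 39.9 and 32.7 RPKM in line 4 roots, against 31.5 and 24.3 RPKM in WT roots, and was not called. At P1 it was at 44.1 and 44.2 RPKM in line 12 and 39.1 and 43.2 RPKM in line 4, against 17.0 and 23.5 RPKM in WT. At P3 it was at 44.7 and 47.2 RPKM in line 12 and 36.6 and 42.6 RPKM in line 4, against 12.4 and 10.7 RPKM in WT. Line 12 overlapped WT at P0, and both lines lay apart from WT on both starved days. At P3 the log2 differences were 1.97 in line 12 (SE 0.15, limma adjusted p = 6.8e-07) and 1.75 in line 4 (SE 0.15, adjusted p = 5.6e-06). Between P0 and P3 it fell in WT roots, by 1.24 on the log2 scale (SE 0.15, limma adjusted p = 2.3e-05), and the responses differed from this by 1.71 in line 12 and 1.37 in line 4 (SE 0.22 each).

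HRE2 moved the other way in WT roots, at 0.296 and 0.384 RPKM at P0, 0.0937 and 0.307 RPKM at P1 and 3.18 and 1.74 RPKM at P3 (log2 change at P3 2.15, SE 0.33, limma adjusted p = 0.00016). At P1 HRE2 was called higher than in WT in both lines, as HRE1 was, but against WT values near the floor. Both HRE2 calls were lost without single libraries. At P3 it was at 0.970 and 1.09 RPKM in line 12 and 1.58 and 1.44 RPKM in line 4, and was not called against WT. Its P3 response was called as different from WT in line 12, a call also lost without single libraries. RAP2.2, RAP2.3 and RAP2.12, the group VII genes that are active before oxygen falls, lie outside the choice. RAP2.12 was at 173 and 161 RPKM in line 12 roots and 174 and 152 RPKM in line 4 roots at P3, against 149 and 148 RPKM in WT roots. In shoots at P3 RAP2.12 was at 96.3 and 102 RPKM in line 12 and 101 and 106 RPKM in line 4, against 68.5 and 69.0 RPKM in WT. RAP2.3, listed as EBP, was at 38.1 and 32.0 RPKM at P0, 41.4 and 35.3 RPKM at P1 and 49.3 and 46.2 RPKM at P3 in WT roots. In roots at P3 it was at 46.0 and 47.0 RPKM in line 12 and 56.4 and 52.7 RPKM in line 4. In shoots at P3 it was at 209 and 216 RPKM in line 12 and 220 and 245 RPKM in line 4, against 228 and 172 RPKM in WT. RAP2.2 was at 95.3 and 106 RPKM in line 12 shoots and 98.1 and 110 RPKM in line 4 shoots at P3, against 50.3 and 51.9 RPKM in WT shoots. In roots at P3 RAP2.2 was at 87.0 and 93.0 RPKM in line 12 and 93.7 and 92.0 RPKM in line 4, against 73.3 and 76.8 RPKM in WT. In shoots HRE1 was at 7.02 and 6.99 RPKM in line 12 and 7.77 and 11.2 RPKM in line 4 at P3, against 3.84 and 5.05 RPKM in WT, and was called in line 4 (log2 difference 1.04, SE 0.17, limma adjusted p = 0.00038), a call lost on the fold after rescaling.

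Of 8 genes of the core low-oxygen response that group VII proteins are known to induce, 6 were higher in roots of line 12 and 6 in roots of line 4 at P0, with none lower (medians 0.75 and 0.76 on the log2 scale). Of all genes, 2.41% and 0.701% were higher there. In line 12 roots at P1 3 of the 8 were higher, beside 2.45% of all genes. In roots at P3 the counts were 6 in line 12 and 5 in line 4, beside 2.38% and 1.26% of all genes. In shoots at P0 none was called in line 12 and 1 was higher in line 4. In shoots at P1 8 of 8 were higher in line 12 and 5 in line 4, beside 7.37% and 3.08% of all genes. At P3 6 were higher in line 12 and 7 in line 4, beside 3.62% and 3.81%. WT shoots had 5 of 8 lower at P1 and at P3 than at P0, beside 2.13% and 2.48%. HB1, a haemoglobin, was at 12.5 and 14.2 RPKM in line 12 shoots and 11.3 and 9.76 RPKM in line 4 shoots at P3, against 2.91 and 2.93 RPKM in WT shoots. ADH1, alcohol dehydrogenase, was at 9.48 and 8.86 RPKM in line 12 shoots and 8.43 and 8.26 RPKM in line 4 shoots at P3, against 3.35 and 4.15 RPKM in WT shoots. In WT roots, by contrast, 3 of 8 were higher at P1 and 4 at P3 than at P0, with none lower, beside 3.58% and 8.27% of all genes. ADH1 was higher in WT roots at P3, at 37.2 and 27.8 RPKM against 9.04 and 7.30 RPKM at P0, while HRE1 was lower.

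In WT roots, 11 of 66 members were higher and 1 lower at P1 than at P0, beside 3.58% and 1.41% of all genes, and 15 were higher and 4 lower at P3, beside 8.27% and 4.12%. The members' median change was 0.25 at P1 and 0.19 at P3 on the log2 scale, against -0.02 and -0.06 over all genes. The count of 11 rested on few libraries: it was 3 without replicate 1 of WT P0 and 5 without replicate 2 of WT P0 or of WT P1, and 3 of the 12 calls held with any 1 library left out. Those were AT2G44940, AT4G16750 and AT5G52020, all of group III. AT5G52020 was at 4.19 and 4.70 RPKM at P0, 11.6 and 9.99 RPKM at P1 and 11.2 and 10.6 RPKM at P3. AT2G44940 was at 24.9 and 29.8 RPKM at P0, 60.3 and 46.9 RPKM at P1 and 52.5 and 47.4 RPKM at P3 (log2 changes 0.96 and 0.87, SE 0.14 each, limma adjusted p = 0.0003 and 0.00023). Starved and sufficient libraries did not overlap in either gene.

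Of the 19 calls at P3, 8 held with any 1 library left out, among them CRF8, HRE1, HRE2, ERF5 and DREB26. The 15 higher members were 8 without replicate 1 of WT P0 and 9 without replicate 2 of WT P3, and the 4 lower were 1 without either. CRF8, a cytokinin response factor, was called at P3 and not at P1. In WT roots it was at 15.4 and 16.6 RPKM at P0, 15.3 and 15.4 RPKM at P1 and 43.0 and 42.5 RPKM at P3. Its log2 change at P3 was 1.41 (SE 0.09, limma adjusted p = 1.4e-08). It was also higher at P3 than at P0 in line 4 roots, at 44.2 and 41.5 RPKM against 16.4 and 16.0 RPKM, and in line 12 roots, at 34.0 and 28.2 RPKM against 17.3 and 18.3 RPKM. The line 12 response minus that of WT was -0.61 on the log2 scale (SE 0.13, limma adjusted p = 0.0039). BBM was lower in WT roots at P3, at 2.80 and 2.26 RPKM against 4.71 and 4.39 RPKM at P0. PLT1 was at 3.99 and 4.53 RPKM at P3 against 6.57 and 5.38 RPKM at P0, a change under the 1.5-fold limit.

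Of the 10 members that led in shoots, 9 were tested in roots. ERF105 and ERF5 were called higher in WT roots on both days and ERF2 at P3, and the tissues' responses were not tested against each other. ERF105 was at 4.01 and 5.004 RPKM at P0, 11.4 and 42.2 RPKM at P1 and 14.1 and 19.4 RPKM at P3 in WT roots, and its calls were lost without the filter on low genes (adjusted p = 0.0619 and 0.0583). ERF5 was at 21.03 and 21.7 RPKM at P0, 32.3 and 39.1 RPKM at P1 and 37.8 and 34.5 RPKM at P3. DDF1, outside this set, had 0 reads in WT roots at P0 and 10 and 38 reads at P1, at least 8.95-fold above a floor of 3 reads per library, and its call was lost with a pseudocount of 1 (adjusted p = 0.0895). ORA47 was at 1.12 and 3.79 RPKM at P1 against 1.18 and 1.10 RPKM at P0 and was not called. Of 7 tested cold and dehydration genes, 6 were higher in WT roots at P1 and 6 at P3, and of the 9 touch and wounding genes 2 and 3. The clock gene GI was at 12.2 and 13.9 RPKM at P0, 42.2 and 40.6 RPKM at P1 and 43.0 and 34.6 RPKM at P3 in WT roots. The summed shoot markers in WT roots were 175 to 219 RPKM at P0, 327 to 372 RPKM at P1 and 350 to 356 RPKM at P3. Their part in the results was not tested.

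At P0, 4 members were higher and 3 lower in line 12 roots than in WT roots, beside 2.41% and 2.69% of all genes. In line 4 roots none was higher and 2 lower, beside 0.701% and 3.74%. At an unadjusted p under 0.05, limma placed 4 members higher and 13 lower in line 4. After rescaling the line 4 counts were 2 higher and 1 lower, and of all genes called there 29.6% were higher in place of 15.8%. AT2G44940 was at 61.2 and 50.3 RPKM in line 12 roots and 37.7 and 37.4 RPKM in line 4 roots at P0, against 24.9 and 29.8 RPKM in WT roots, called in line 12 (log2 difference 1.02, SE 0.14, limma adjusted p = 0.00016). At P3 it was at 30.2 and 27.7 RPKM in line 12 and 35.6 and 33.6 RPKM in line 4, against 52.5 and 47.4 RPKM in WT. Both differences of response were called, at -1.80 in line 12 (SE 0.19) and -0.98 in line 4 (SE 0.19). GI was at 48.4 and 44.3 RPKM in line 12 roots and 32.2 and 27.7 RPKM in line 4 roots at P0, against 12.2 and 13.9 RPKM in WT, and its part was not tested. Of the 7 calls in line 12, AT2G44940 and DEWAX held with any 1 library left out. The 4 higher members were 1 without replicate 1 of line 12 or of WT, and the 3 lower were 1 without any of the 4 libraries. Neither call of line 4 held: the count of lower members was 9 without its replicate 1, 1 without replicate 1 of WT, and 0 without replicate 2 of line 4 or of WT.

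The wax repressor DEWAX moved in the opposite direction to AT2G44940 in roots. DEWAX was at 85.9 and 81.7 RPKM in line 12 and 111 and 108 RPKM in line 4 at P0, against 154 and 136 RPKM in WT. After 3 days it had 209 and 188 RPKM in line 12 and 162 and 170 RPKM in line 4, against 98.6 and 94.7 RPKM in WT. The differences of response were 1.82 (SE 0.12, limma adjusted p = 4.9e-08) and 1.18 (SE 0.12, adjusted p = 1.7e-05), and the groups did not overlap on either day. ERF104, which lies 832 bases from it on the same strand, was not called in any of the root comparisons run.

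At P1, line 12 roots had 4 members higher and 10 lower than WT roots, beside 2.45% and 3.42% of all genes, and line 4 roots had 2 higher and 4 lower, beside 1.37% and 1.79%. At P3 the counts were 5 and 6 in line 12, beside 2.38% and 2.8%, and 4 and 2 in line 4, beside 1.26% and 1.76%. Higher in both lines at P3 were HRE1, DEWAX, ABR1 and AT3G60490, 4 of 66 members beside 1.07% of all genes, and lower in both were LEP and AT1G22810, beside 1.31%. The comparisons of the lines share the WT libraries. ABR1 was at 3.39 and 3.48 RPKM in line 12 roots and 2.37 and 3.21 RPKM in line 4 roots at P3, against 1.68 and 1.27 RPKM in WT roots. LEP was at 11.4 and 12.2 RPKM in line 12 and 10.0 and 9.94 RPKM in line 4, against 22.0 and 20.7 RPKM in WT. The members' median difference at P3 was -0.11 in both lines on the log2 scale, against 0.02 in line 12 and -0.02 in line 4 over all genes. The P3 response differed from WT for 12 members in line 12 roots, 4 upward and 8 downward, beside 4.99% and 6.07% of all genes (11.1% either way). In line 4 roots it differed for 7, 4 upward and 3 downward, beside 4.74% and 1.68% (6.42% either way), and 73.9% of all genes called there were upward, or 55.1% after rescaling. HRE1, DEWAX, ABR1 and AT3G60490 were upward and AT2G44940 and AT1G22810 downward in both, beside 3.05% and 1.42% of all genes. Within the lines, P3 against P0 gave 7 members higher and 8 lower in line 12 roots, beside 6.05% and 2.54% of all genes, and 12 higher and 7 lower in line 4 roots, beside 10.3% and 2.71%. With any 1 library left out, 7 of 12 differences of response held in line 12 (7 were called without replicate 1 of WT P0) and 4 of 7 in line 4, where 4 were called without replicate 2 of line 4 P3, of WT P0 or of WT P3. The P1 counts of line 12 fell to 2 higher without its replicate 1, and to 4 lower without its replicate 2 or 6 without replicate 1 of WT. In line 4 at P1 the 2 higher were 4 without its replicate 1, and the 4 lower were 2 without its replicate 2 or either WT library. At P3 the 6 lower of line 12 were 3 without its replicate 2 and 2 without replicate 1 of WT. In line 4 the 4 higher were 2 without replicate 2 of line 4 or of WT, and the 2 lower were 1 without any of the 4 libraries.

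Other genes moved in the same root libraries. The summed shoot markers at P1 were 209 to 226 RPKM in line 12 roots and 247 to 260 RPKM in line 4 roots, against 327 to 372 RPKM in WT roots, with 4 of the 6 called lower in line 12 and 2 in line 4. At P3 the sums were 278 to 314 RPKM in line 12 and 261 to 274 RPKM in line 4, against 350 to 356 RPKM in WT, with 1 called lower in line 12 and 2 in line 4. Of 9 clock genes, 2 were lower in each line at P1 and 3 in each line at P3, and none was higher. GI was at 15.6 and 12.2 RPKM in line 12 and 17.2 and 11.6 RPKM in line 4 at P1, against 42.2 and 40.6 RPKM in WT. Of 7 tested cold and dehydration genes, 4 were lower in line 12 and 1 in line 4 at P1, and 6 in line 12 and 3 in line 4 at P3. Their part in the results was not tested.

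**Figure D5:**
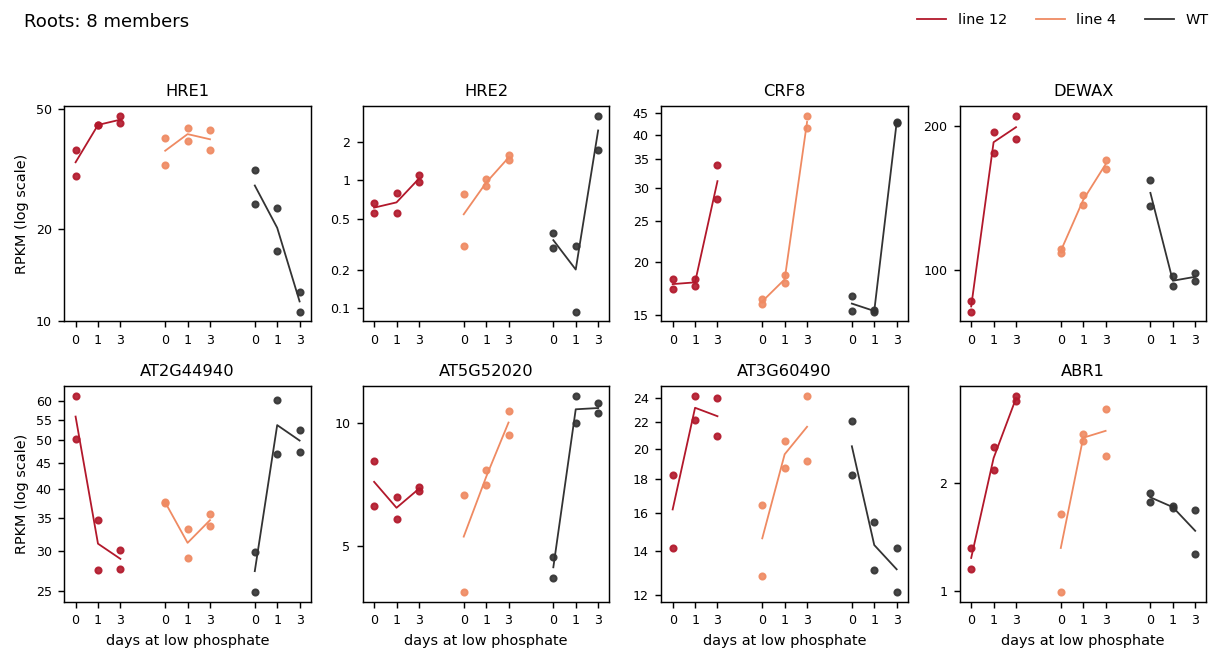
RPKM (log scale) in roots of 8 members by days at low phosphate, in line 12, line 4 and WT, with points for the 2 libraries and lines through their means. HRE1 ends at 36.6 to 47.2 RPKM in the lines and 12.4 and 10.7 RPKM in WT, and CRF8 ends at 28.2 to 44.2 RPKM in every genotype.

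Some members lie side by side on a chromosome, and the treatment of reads that match both genes of a pair is not known here. ERF6 and ERF1A are 5041 bases apart on chromosome 4, on opposite strands, and both rose in WT shoots. TDR1 lies between ESE1 and ERF1 on chromosome 3 and was called higher at P3 than at P0 in line 4 shoots, at 4.31 and 4.97 RPKM against 1.84 and 0.626 RPKM.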

How the data were processed

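RNA from 36 pools of seedlings, labelled as biological replicates, was sequenced as paired reads. The deposited values are RPKM per gene, which the authors computed with CLC Genomics Workbench on TAIR version 10. RPKM removes differences in depth and gene length, but a gene that takes many reads lowers all others. Sheets of the authors' averages, fold changes and gene lists were not used. The 146 entries without a gene name, found in 8 libraries with at most 0.109% of a library's summed RPKM, stayed out. Reads were recovered as whole multiples of the lowest step, and 98.7% to 99.3% of values with under 200 reads came out whole within 0.02. They served for depth and floors only.

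Tests used limma 3.58.1 in R 4.3.3 on log2(RPKM + 0.25), separately for shoots and roots, with 9 groups of 2 libraries as a single factor, a trend of variance with level and 9 residual degrees of freedom. Shoots and roots of WT were compared in a fit of all 36 libraries. Genes under a mean of 0.25 RPKM were dropped, and the Benjamini-Hochberg adjustment ran over all remaining genes of a fit. Fold limits of 2 in shoots and 1.5 in roots applied to the ratio of mean RPKM, with means under 0.25 set to 0.25, and fold changes of low genes are understated on this scale. Alternatives were a pseudocount of 1, no filter, rescaling by median ratios, the replicate number as a block, and each library left out in turn. The code was tested on simulated data.

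Values of every library are given for up to 6 called members per direction with the largest change and no overlap, and for members with a set background role. Others were picked for the patterns they show. Members and lists were chosen with earlier results of these data known. Group membership and gene lists came from general knowledge of the family. All 95 members matched RefSeq, which gave the sequences (TAIR10.1). The stretch before the start of 1 member is not reported here.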

Additional observations from a re-analysis of the deposited data

Results flagged for a closer look

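The P3 response of a line was tested against that of WT, and it differed beyond the threshold for some members in each of 4 comparisons. In shoots this held for 31 members in line 12 and 26 in line 4, beside 33.2% and 29.8% of all genes. In roots it held for 12 members in line 12 and 7 in line 4, beside 11.1% and 6.42% of all genes. The members behind these counts, their values and the marker and clock genes that moved with them are given above. Whether line 12 differed from line 4 was not tested.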

How the results depend on the processing

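With 2 libraries a group, counts of called members depended on single libraries more than on any other choice. In roots, leaving out 1 library gave these lowest and highest counts: WT at P1, 3 to 8 higher and 0 to 2 lower; WT at P3, 8 to 11 higher and 1 to 5 lower. Line 12 against WT had 1 to 4 higher and 1 to 1 lower at P0, 2 to 3 higher and 4 to 8 lower at P1, and 2 to 4 lower at P3. Line 4 against WT had 0 to 9 lower at P0, 2 to 4 higher and 2 to 5 lower at P1, and 2 to 4 higher and 1 to 1 lower at P3. Root responses differed for 7 to 10 members in line 12 and 4 to 8 in line 4. In shoots, WT had 3 to 5 lower at P1 and 1 to 4 lower at P3. Line 12 against WT had 2 to 4 lower at P0, and 3 to 5 higher and 8 to 12 lower at P3. Line 4 against WT had 0 to 3 higher and 0 to 2 lower at P0, 5 to 11 higher and 2 to 6 lower at P1, and 3 to 6 higher at P3.

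Rescaling by median ratios gave 3 members lower in WT shoots at P3 in place of 5, and in line 4 roots at P0 2 higher in place of 0 and 1 lower in place of 2. A pseudocount of 1 gave 1 higher in line 4 roots at P0. The cause was not tested. No direction was reversed under the alternatives run. Of single calls, 17 were lost under rescaling, 22 without the filter and 10 with a pseudocount of 1. The median change of all genes in WT shoots at P3 was -0.14 as deposited and 0.00499 after rescaling.

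Replicate numbers did not pair the samples throughout. In each group the log2 value of replicate 2 was taken from that of replicate 1, and these differences were correlated across genes between groups. Over 36 pairs of groups the median correlation was 0.0245 in shoots and 0.0725 in roots, with 11 and 10 pairs above 0.1. The highest was 0.699 in shoots, between line 4 at P1 and WT at P3, and 0.238 in roots, between line 4 and WT at P1. Line 4 and WT shoots at P1 had -0.0359. With the replicate number as a block, the counts in WT shoots at P1 were 15 higher and 5 lower as without it, responses differed for 32 members in line 12 shoots and 27 in line 4 shoots, and 3 single calls were lost. Depth limits members near 0.1 RPKM, where values rest on a few reads.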
